A study of Mus musculus with 4 samples.

Results

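The 4 brain libraries of this series were set against each other by the reads of one gene, Ids, which encodes the lysosomal enzyme iduronate 2-sulfatase. The libraries labelled CxH and MWT held the lower Ids levels and form the low-Ids side, and those labelled MH and CxWT held the higher levels and form the high-Ids side. The 2 libraries of each side were chosen by their Ids reads, all 4 libraries of the series were used, and 12588 of the 12700 genes in the table had 20 or more reads in at least 2 libraries and entered the comparison. The remaining 112 genes were not compared. The libraries came from C57BL/6 mice aged 9 months, either Ids knockouts (Ids-ko, H in the names) or wild-type littermates (wt, WT in the names). RNA was taken from the cerebral cortex (Cx) or from a block of midbrain, diencephalon and hippocampus (M). Each library was made from the RNA of 7 mice pooled into 1 sample and has no replicate, so no value below has a check against variation between pools. Per the study's methods both areas were dissected from each brain, so by the labels CxH and MH come from the same 7 Ids-ko mice and CxWT and MWT from the same 7 wt mice.

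Iduronate 2-sulfatase removes a sulfate group from the iduronic acid residues of heparan sulfate and dermatan sulfate, 2 glycosaminoglycans that are taken apart in the lysosome one residue at a time. When the enzyme is missing the chains stay in the lysosome, which is the defect of mucopolysaccharidosis type II (Hunter syndrome), an X-linked disease that the Ids-ko mouse models. In the brain, stored material is found in neurons, glia and perivascular cells, and microglia, the resident phagocytes, and astrocytes become activated around it.

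The labels and the reads did not point the same way for every library. Ids had 135 RPM (reads per 1000000 aligned reads) in the library labelled CxH, 368 in MH, 155 in MWT and 354 in CxWT, so among the libraries of block M the one labelled Ids-ko held more Ids reads than the one labelled wt. The area markers also ran across the labels. The summed level of 19 genes of cortical projection neurons was 5168 RPM in the library labelled CxH and 4647 in MH, against 969 in MWT and 1139.6 in CxWT. The summed level of 21 midbrain and diencephalon genes was 49.8 and 61.3 RPM in CxH and MH and 536 and 629.6 RPM in MWT and CxWT. The libraries were therefore compared within 2 pairs of like marker level, CxH over MH (called the cortical-level pair here) and MWT over CxWT (the midbrain-level pair), and every library name is only a label. The pairs share no library. The reads on genes ranged from 16380080 to 23475080 per library, and 27 to 35 genes of the table had no read in a library. All ratios below are log2 ratios of the low-Ids library over the high-Ids library of a pair, with the standard error from counting after each ±, which covers counting error only.

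A gene counted as past the fold in a pair when its log2 ratio was at least 0.7 in size, a linear fold of 1.62, and its 95% counting interval left out 0. In the cortical-level pair 294 genes (2.34%) were higher and 127 (1.01%) lower in the low-Ids library. In the midbrain-level pair 258 genes (2.05%) were higher and 677 (5.38%) lower. Past the fold in both pairs, 79 of the 12588 genes (0.628%) were higher on the low-Ids side, 18 (0.143%) were lower, and 14 (0.111%) went opposite ways. Of the 79, 11 genes (Ccl3, Ccl5, Ccl8, Cd52, Fcgr4, I830077J02Rik, Ifi27l2a, Ms4a7, Ppbp, S100a9 and Wfdc17) reached 20 reads only in the 2 libraries where they were high, so they could enter the comparison only by differing, and the other 68 did not depend on this. Of the 18, the same held for Rmrp. Of the 294 genes higher in the cortical-level pair, 79 (26.9%) were also higher in the other pair and 12 (4.08%) were lower there. Of the 258 genes higher in the midbrain-level pair, 79 (30.6%) were higher and 2 (0.775%) lower in the other. The genes lower in one pair overlapped less often as shares of their lists, since the 18 made up 14.2% of 127 and 2.66% of 677. Without any fold, 2571 genes (20.4%) were above 0 in both pairs and 3012 (23.9%) below 0 in both. The genes that agreed upward were therefore few among all genes, and they are described here one group at a time.

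**Figure D1:**
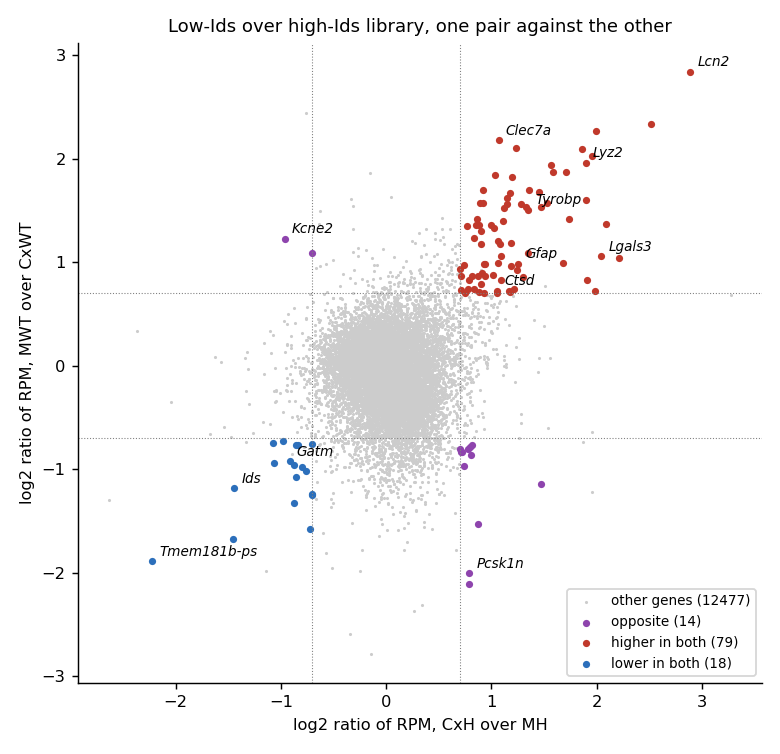
Each point is one of the 12588 genes, with its log2 ratio of RPM in CxH over MH on the horizontal axis and in MWT over CxWT on the vertical axis, and the dotted lines stand at a log2 ratio of 0.7 in size. The 79 genes higher in both (red) spread out to Lcn2 at 2.89 and 2.84, the 18 lower in both (blue) out to Tmem181b-ps at -2.22 and -1.89, and the 14 that went opposite ways (purple) lie in the other corners.

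The genes higher on the low-Ids side were led by lipocalin 2 and by products of phagocytes. Lcn2, a siderophore-binding protein that reactive astrocytes secrete, had 236 reads (6.13 RPM) in the library labelled CxH against 31 (0.830 RPM) in MH, and 253 reads (8.74 RPM) in MWT against 41 (1.22 RPM) in CxWT. Its log2 ratios were 2.89 ± 0.28 and 2.84 ± 0.24, and both low-Ids libraries stood above both high-Ids libraries. Lyz2, the lysozyme of macrophages and microglia, had 75.6 RPM in CxH against 20.3 in MH and 77.4 RPM in MWT against 19.8 in CxWT, with log2 ratios of 1.89 ± 0.059 and 1.963 ± 0.064. The 2 libraries of each side lay close to each other for Lyz2 and the sides did not overlap. Its near-identical neighbour Lyz1 had log2 ratios of 1.15 ± 0.13 and 1.56 ± 0.15, and since reads that fit several genes were not counted, the split of reads between Lyz1 and Lyz2 is uncertain. RNA from whole tissue cannot tell more cells of a type from more RNA per cell, which holds for every gene named here.

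Of the list of activated microglia genes, 27 of 30 were measured, and 13 of them (48.1%) were higher past the fold in both pairs, none was lower and 22 were above 0 in both. The list's median log2 ratio was 0.92 in the cortical-level pair and 0.69 in the midbrain-level pair, beside 0.02 and -0.05 over all genes. The 13 genes take in receptors, secreted proteins and lysosomal proteins. Tyrobp, the signalling adaptor of Trem2, had 18.9 RPM in CxH against 7.44 in MH and 21.0 RPM in MWT against 7.38 in CxWT, with log2 ratios of 1.35 ± 0.10 and 1.51 ± 0.11. Trem2 itself, a lipid-sensing receptor of microglia, was past the fold by little at 0.89 and 0.71, and under it in the cortical-level pair (0.60) after the correction for GC content and length described below. Gpnmb, a membrane glycoprotein of lipid-laden phagocytes, had 17.7 RPM in CxH against 6.397 in MH and 11.99 RPM in MWT against 4.13 in CxWT, with log2 ratios of 1.47 ± 0.11 and 1.54 ± 0.15. Clec7a, a receptor for fungal glucans that marks activated microglia, was more unequal between the pairs. It had 3.82 RPM in CxH against 1.82 in MH and 13.6 RPM in MWT against 3.00 in CxWT, and its log2 ratios were 1.07 ± 0.21 and 2.18 ± 0.16. Ch25h, the enzyme that makes 25-hydroxycholesterol, had 90 and 22 reads in the cortical-level pair and 58 and 14 in the midbrain-level pair, with log2 ratios of 1.99 ± 0.34 and 2.27 ± 0.43. The chemokine gene Ccl3 rested on 30 and 8 and on 44 and 12 reads. The other members past the fold were Cd52, Lgals3 (2.04 and 1.06), Lilrb4a, Cst7, Ccl6, Ctsd and Trem2. Of the 14 members that were not, Cd63 (0.93 and 0.69), Fth1 (0.67 and 0.68) and Cd68 (1.07 and 0.52) were the nearest, and Igf1 (-0.20 and 0.21), Lpl (-0.12 and 0.37), Apoe (0.35 and 0.02) and Axl (0.42 and -0.11) were among those far from it. The members named in the last sentences with their ratios alone were picked after their values were seen.

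Receptors and effectors of phagocytes that were not in that list were higher in a like share. Of 23 measured genes of phagocyte receptors and the NADPH oxidase, 10 (43.5%) were higher past the fold in both pairs, 22 were above 0 in both and none was below 0 in both, with medians of 0.89 and 0.89. Slamf9, a receptor of the SLAM family, had 2.70 RPM in CxH against 0.910 in MH and 3.66 RPM in MWT against 0.952 in CxWT, with log2 ratios of 1.57 ± 0.28 and 1.94 ± 0.29. Ly9, another member of the SLAM family, had 5.30 RPM in CxH against 2.25 in MH and 6.01 RPM in MWT against 1.40 in CxWT, with log2 ratios of 1.24 ± 0.19 and 2.104 ± 0.24. Cd84 (0.92 and 1.58) and Cd48 (1.20 and 1.83) belong to the same family, and all 4 genes lie on chromosome 1. Fcgr2b, the inhibitory receptor for antibody, had 6.29 RPM in CxH against 3.08 in MH and 7.70 RPM in MWT against 2.14 in CxWT, with log2 ratios of 1.03 ± 0.16 and 1.85 ± 0.20. Fcgr4, an activating receptor for antibody, had 37, 11, 44 and 14 reads in CxH, MH, MWT and CxWT and ratios of 1.71 ± 0.49 and 1.87 ± 0.44. Reads that fit more than one Fc receptor gene would be missing from these counts. Mpeg1, the pore-forming perforin-2 of macrophages, Tlr2, Tlr7, Cd14, Cd84 and Ly86 made up the rest of the 10. After the correction for GC content and length Tlr7 was under the fold in the midbrain-level pair (0.66). The oxidase subunit genes Cyba (1.06 and 0.36), Ncf1 (0.44 and 0.37) and Ncf4 (0.89 and 0.77, from 42 reads or fewer, with a counting interval that took in 0) were not past the fold in both, and neither was Fcer1g (0.95 and 0.69), the signalling chain of the activating Fc receptors.

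Genes that microglia express at rest had smaller medians than the activated list, a difference that was not tested. Of 17 measured members, 2 were past the fold in both pairs, 12 were above 0 in both and 1 was below 0 in both, and the medians were 0.37 and 0.32. One of the 2 was Fcrls, an Fc-receptor-like scavenger protein found in microglia, which had 58.1 RPM in CxH against 23.9 in MH and 48.3 RPM in MWT against 16.4 in CxWT, with log2 ratios of 1.28 ± 0.057 and 1.56 ± 0.073. The other was Aif1, which encodes the microglial stain Iba1, at 0.86 ± 0.22 and 1.36 ± 0.25, and under the fold in the cortical-level pair (0.69) after the correction for GC content and length. The purinergic receptor gene P2ry12 (-0.10 and 0.37), the fractalkine receptor gene Cx3cr1 (0.32 and 0.28), the growth factor receptor gene Csf1r (0.25 and 0.08) and Tmem119 (0.52 and -0.21) had ratios well under the fold. The summed level of the 17 genes was 656 RPM in CxH against 508 in MH and 535 RPM in MWT against 420.5 in CxWT. For the activated list the sums were 3753 RPM against 2489 and 3677 RPM against 2731. In the same order, these sums include Fth1, at 1038 RPM against 653 and 1164 RPM against 726. They also include Ctsd, which most cells carry, at 697 RPM against 335 and 621 RPM against 376. Both genes weigh heavily in the sums.

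Complement genes past the fold in both pairs included chains of C1q. C1qa, a chain of the C1q recognition molecule, had 161 RPM in CxH against 63.5 in MH and 128 RPM in MWT against 60.4 in CxWT, with log2 ratios of 1.35 ± 0.035 and 1.09 ± 0.040. C1qb, a further chain, was past the fold in both pairs at 1.21 ± 0.046 and 0.74 ± 0.054, while C1qc, the remaining chain, had 0.95 and 0.54 and was not. C3ar1, the receptor for the C3a fragment, had 7.58 RPM in CxH against 4.10 in MH and 8.57 RPM in MWT against 2.89 in CxWT, with log2 ratios of 0.89 ± 0.14 and 1.57 ± 0.17. C4a (0.90 ± 0.069 and 0.79 ± 0.074) and C4b (0.89 and 0.48) are near-identical copies among which reads could be split, so neither is certain by itself. After the correction C4b was past the fold in both pairs (0.80 and 0.77), and C4a could not be corrected. In all, 4 of 15 measured complement genes were higher past the fold in both pairs, none was lower, and the medians were 0.20 and 0.54. The inhibitor and surface regulator genes Serping1 (0.13 and -0.15), Cd55 (-0.38 and 0.29) and Cd59a (-0.15 and 0.27) lay on both sides of 0.

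Antigen presentation, interferon and cytokine genes had few members past the fold. Of 18 genes of antigen presentation, 1 was higher in both pairs, H2-DMb1, a chain of the peptide-loading molecule for class II, at 1.18 ± 0.23 and 0.71 ± 0.28 (0.67 in the midbrain-level pair after the correction for GC content and length, under the fold), and the class II genes Cd74 (0.37 and -0.67) and H2-Ab1 (0.34 and -0.52) had opposite signs in the pairs. The medians were 0.33 and 0.08, and 0.10 and 0.29 after the correction, which left Psmb8, a subunit of the immunoproteasome, as the 1 member past the fold (0.80 and 0.73). Of 24 interferon-response genes, 3 were higher in both pairs, Ifi27l2a (1.90 ± 0.66 and 1.60 ± 0.47, from 34 reads or fewer), the lysosomal thiol reductase gene Ifi30 (1.06 ± 0.17 and 0.996 ± 0.20) and the tetherin gene Bst2 (1.02 ± 0.26 and 0.88 ± 0.24). The list's medians were 0.09 and 0.53, or 0.11 and 0.35 after the correction. Of its members 15 were above 0 in both pairs and 1, Irf7 (-0.33 and -0.24), was below 0 in both, and 23 were above 0 in the midbrain-level pair, among them Ifit1 (-0.17 and 0.55) and Ifit3 (-0.39 and 0.56). Of 18 cytokine and chemokine genes kept, Ccl5 (2.09 ± 0.57 and 1.37 ± 0.48) and Ccl8 (1.957 ± 0.72 and 2.02 ± 0.58) were higher in both, on 35 and 28 reads at most, and the medians were 0.23 and 0.15. Tgfb1 had 1.22 in the cortical-level pair and -0.16 in the other. S100a8 and S100a9, whose proteins together form calprotectin of neutrophils and monocytes, were also among the 79 on low counts, with 85, 22, 69 and 45 reads and 45, 16, 47 and 17 reads in CxH, MH, MWT and CxWT, and were picked after their values were seen. After the correction the ratio of S100a8 in the midbrain-level pair was 0.23, down from 0.83. Taken across the 7 immune lists above, 35 of the 79 genes higher in both pairs (44.3%) were list members, beside 142 of all 12588 genes (1.13%), and the lists were written with earlier results of these data known. The 35 include Ccl3, Ccl5, Ccl8, Cd52, Fcgr4 and Ifi27l2a, which reached 20 reads only in the low-Ids libraries and could enter only by differing. The share is therefore a description and not a test.

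**Figure D2:**
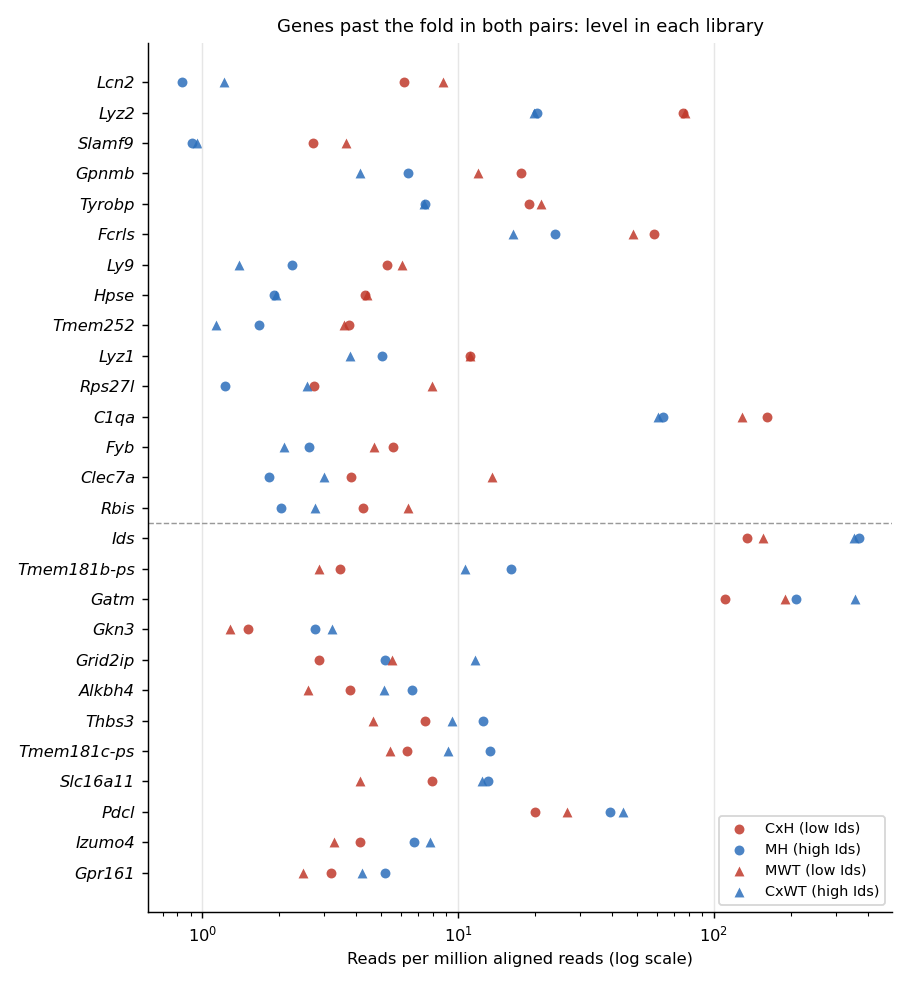
Levels in RPM (horizontal axis, log scale) of the 15 named genes with the largest agreeing ratios upward and of 12 genes lower in both pairs, below the dashed line, with low-Ids libraries in red and high-Ids libraries in blue, circles for the cortical-level pair and triangles for the midbrain-level pair. Lcn2 lies at 6.13 and 8.74 RPM against 0.830 and 1.22, and Ids at 135 and 155 RPM against 368 and 354.

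Astrocyte genes were past the fold in a few members with large ratios. Gfap, the intermediate filament of astrocytes, had 603 RPM in CxH against 253 in MH and 555 RPM in MWT against 280.1 in CxWT, with log2 ratios of 1.25 ± 0.018 and 0.99 ± 0.019. On the linear scale it was 2.38-fold and 1.98-fold higher. Lrg1, a secreted leucine-rich glycoprotein of the acute-phase response, had 153, 32, 39 and 22 reads in CxH, MH, MWT and CxWT and log2 ratios of 2.21 ± 0.28 and 1.04 ± 0.39. With Lcn2 these were 3 of 18 reactive astrocyte genes, of which 14 were above 0 and 4 below 0 in both pairs, with medians of 0.45 and 0.27. The serpin gene Serpina3n had 0.50 and 0.87, the oncostatin M receptor gene Osmr 0.58 and 0.72, and Vim, another intermediate filament, 0.41 and 0.05. None of the 18 genes of resting astrocytes was past the fold in both, and their medians were 0.21 and 0.03. Among these the glutamate transporter gene Slc1a2 had 0.19 ± 0.009 and 0.22 ± 0.012, and the glutamine synthetase gene Glul had 0.26 ± 0.010 and 0.07 ± 0.012.

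The enzymes that take glycosaminoglycans apart are the pathway of Ids itself. Ids had 5211 reads in CxH against 13752 in MH and 4496 in MWT against 11890 in CxWT, log2 ratios of -1.44 ± 0.023 and -1.19 ± 0.025, that is 2.72-fold and 2.28-fold lower, and these are the values that chose the sides. The counts sum reads over the gene, so reads on the altered stretch of the allele are not told apart. Of the other 16 measured genes of the pathway, 2 were past the fold in both pairs and both were higher. Hpse encodes heparanase, the endoglycosidase that cuts heparan sulfate chains into fragments. It had 166 reads (4.31 RPM) in CxH against 71 (1.90 RPM) in MH and 127 reads (4.39 RPM) in MWT against 65 (1.93 RPM) in CxWT, with log2 ratios of 1.18 ± 0.20 and 1.18 ± 0.22. The sides did not overlap and the pairs were alike. Gusb encodes beta-glucuronidase, which acts on glucuronic acid residues of both substrates. It had 10.9 RPM in CxH against 6.34 in MH and 11.6 RPM in MWT against 6.96 in CxWT, with log2 ratios of 0.78 ± 0.12 and 0.74 ± 0.12.

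The rest of the pathway lay on both sides of 0. Hexa, a subunit of beta-hexosaminidase, was above 0 in both pairs at 0.92 ± 0.049 and 0.47 ± 0.055, as was Glb1, the beta-galactosidase, at 0.34 and 0.16. Galns, the sulfatase of keratan sulfate, was below 0 in both at -0.52 ± 0.15 and -0.49 ± 0.18. Idua encodes alpha-L-iduronidase, which takes off the iduronic acid once Ids has removed the sulfate, and had 0.34 ± 0.081 and -0.04 ± 0.085. Of the enzymes of the later steps on heparan sulfate, Naglu had 0.46 and -0.37 and Hgsnat 0.14 and -0.06. Arsb, the sulfatase of dermatan sulfate, had -0.12 and -0.06, and Sumf1, which activates all sulfatases, 0.01 and 0.10. The median over the 17 genes, Ids included, was 0.34 in the cortical-level pair and -0.0019 in the midbrain-level pair. The sulfamidase gene Sgsh was not analysed here.

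Other lysosomal groups are given beside all genes, of which 0.628% were higher and 0.143% lower past the fold in both pairs. Differences between the groups were not tested, and at these shares a list of this size with no member past the fold is not unusual. Of the 16 cathepsin and lysosomal protease genes, inhibitors included, 3 were higher past the fold in both pairs, 14 were above 0 in both and none below 0 in both, with medians of 0.55 and 0.42. Among the 3, Ctsd and Cst7 are also members of the activated microglia list and were counted there. Ctss, the cysteine protease cathepsin S of antigen-presenting cells, had 72.7 RPM in CxH against 39.4 in MH and 107 RPM in MWT against 41.9 in CxWT, with log2 ratios of 0.88 ± 0.046 and 1.36 ± 0.046. Ctsd, the aspartic protease cathepsin D that most cells carry in their lysosomes, had 697 RPM in CxH against 335 in MH and 621 RPM in MWT against 376 in CxWT, with log2 ratios of 1.06 ± 0.016 and 0.72 ± 0.017. Cst7, the inhibitor cystatin F, had 132, 40, 67 and 39 reads and ratios of 1.68 ± 0.26 and 0.997 ± 0.29. Ctsl (0.69 and 1.16), Ctsc (0.60 and 1.32) and Ctsh (0.84 and 0.62) missed the fold in one pair each, and after the correction for GC content and length Ctsl (0.81 and 0.86) and Ctsc (0.76 and 1.04) were past it in both. Ctsb had 0.35 and 0.24. None of the 20 genes of sphingolipid and glycoprotein degradation was past the fold in both, with medians of 0.20 and 0.08, and Psap, the precursor of the saposins, had 0.15 and -0.25. None of the 28 genes of the lysosomal membrane and proton pump was (medians 0.09 and 0.06), and neither was any of the 28 autophagy genes (medians 0.004 and -0.07), among which Map1lc3b had 0.31 and -0.20.

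**Figure D3:**
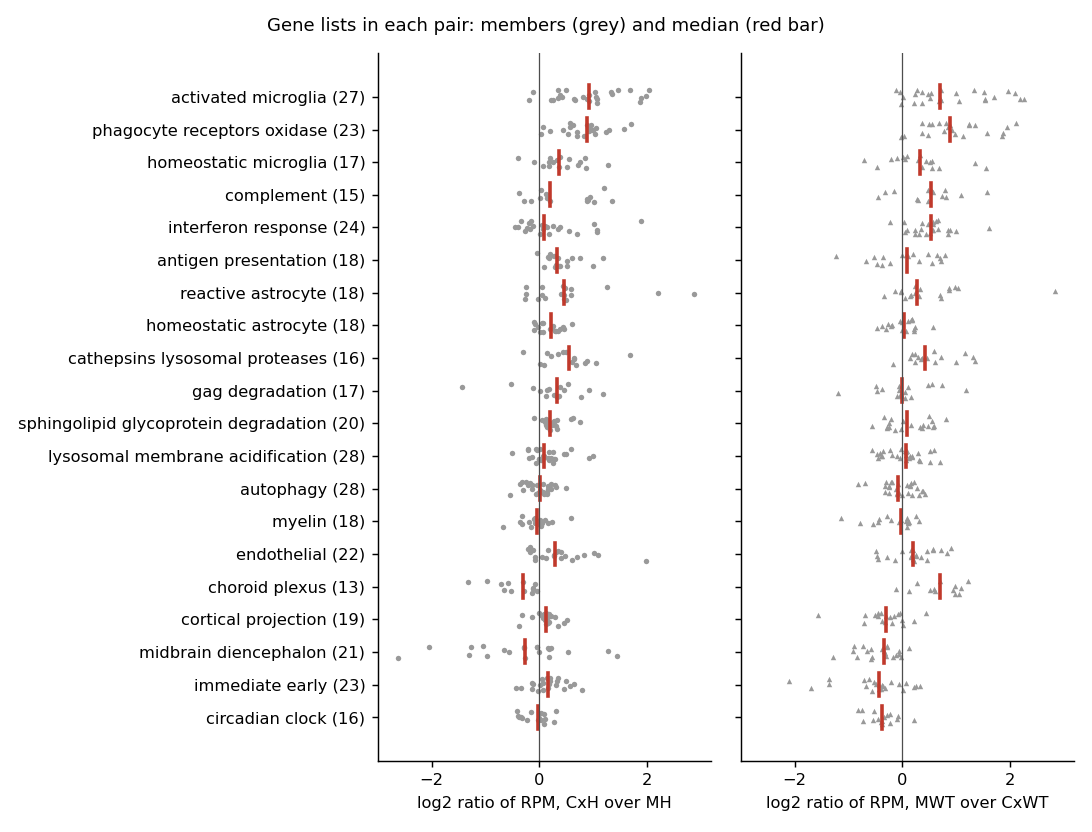
Log2 ratios of RPM of the members of 20 gene lists (grey points) with the list median (red bar), CxH over MH on the left and MWT over CxWT on the right, and the number of measured members in brackets. The medians of activated microglia (0.92 and 0.69) and of phagocyte receptors (0.89 and 0.89) lie to the right of 0 in both panels, while that of choroid plexus lies left of 0 in one (-0.31) and right of it in the other (0.70).

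Short stretches of promoter are shown for 4 of the genes higher in both pairs, one for each motif searched and one holding both of the immune motifs. The motifs were the ETS/PU.1 core GAGGAAGT, bound by the factor that sets the identity of macrophages and microglia, the CLEAR core GTCACGTG, bound by the factors that regulate lysosomal genes, and the interferon-stimulated response element core GAAANNGAA, each on either strand. Each stretch is the 120 bases before the annotated start of the gene in RefSeq on GRCm38.p6, 5′ to 3′ on the strand of the gene, with the matches in capitals. Slamf9 lies at chr1:172475240-172475359 (+), Fcgr4 at chr1:171018806-171018925 (+), Ctss at chr3:95526666-95526785 (+) and Ctsd at chr7:142387828-142387947 (-).
Slamf9: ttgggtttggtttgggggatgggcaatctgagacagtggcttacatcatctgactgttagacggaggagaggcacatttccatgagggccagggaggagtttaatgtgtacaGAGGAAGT
Fcgr4: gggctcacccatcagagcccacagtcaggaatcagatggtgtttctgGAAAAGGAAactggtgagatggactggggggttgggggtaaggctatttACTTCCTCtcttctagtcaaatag
Ctss: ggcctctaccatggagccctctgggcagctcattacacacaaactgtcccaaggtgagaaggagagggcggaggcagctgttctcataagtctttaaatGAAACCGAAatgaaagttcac
Ctsd: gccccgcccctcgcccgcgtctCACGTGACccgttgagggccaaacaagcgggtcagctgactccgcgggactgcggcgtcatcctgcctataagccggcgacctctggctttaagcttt
Slamf9 and Fcgr4 hold the ETS/PU.1 core, Fcgr4 and Ctss the interferon core and Ctsd the CLEAR core. Over windows from 250 bases before to 50 after the start, 59 of the 79 genes had a RefSeq promoter. The ETS/PU.1 core was in promoters of 8 of the 59 genes (13.6%), beside 330 of 10045 genes (3.29%) over the whole table. The interferon core was in 13 (22.03%), beside 8.15%, and the CLEAR core in 2 (3.39%), beside 4.73%. Genes with a match included Fcgr4, I830077J02Rik, Ccl3 and Ms4a7, which entered the comparison only through the libraries where they were high. Of 13 genes lower in both pairs with a promoter, none held the ETS/PU.1 or the CLEAR core and 1 the interferon core. A match describes the letters of the window and does not show that a factor binds there.

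The 18 genes lower on the low-Ids side had no common theme among the lists, and Ids was the only list member among them. The largest ratio was that of Tmem181b-ps, annotated as a transcribed pseudogene and named as a copy of the transmembrane protein gene Tmem181. It had 133 reads (3.45 RPM) in CxH against 602 (16.1 RPM) in MH and 83 reads (2.87 RPM) in MWT against 357 (10.6 RPM) in CxWT, with log2 ratios of -2.22 ± 0.14 and -1.89 ± 0.18. Tmem181c-ps, a further copy also annotated as a transcribed pseudogene, had 6.34 RPM in CxH against 13.4 in MH and 5.42 RPM in MWT against 9.13 in CxWT. Its log2 ratios were -1.08 ± 0.11 and -0.75 ± 0.14. Both lie on chromosome 17 of mm9, at chr17:6439626-6489526 and chr17:6635399-6636930, with no other positioned gene of the table between them. The genes on either side, Gtf2h5 (0.15 and 0.42) and Ezr (0.02 and -0.07), lay under the fold. Reads that fit more than one Tmem181 copy would be missing from these counts, so the levels are uncertain.

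Gatm, the amidinotransferase of the first step of creatine synthesis, had the most reads among these genes apart from Ids. It had 110.9 RPM in CxH against 209.5 in MH and 189 RPM in MWT against 358 in CxWT, with log2 ratios of -0.92 ± 0.027 and -0.92 ± 0.024. Both high-Ids libraries stood above both low-Ids libraries, with MWT close under MH. Pdcl, a phosducin-like cofactor in protein folding, had 19.97 RPM in CxH against 39.4 in MH and 26.7 RPM in MWT against 44.1 in CxWT, with log2 ratios of -0.98 ± 0.064 and -0.72 ± 0.064. Slc16a11, a transporter of the monocarboxylate family, had 7.92 RPM in CxH against 13.1 in MH and 4.15 RPM in MWT against 12.4 in CxWT, with -0.72 ± 0.11 and -1.58 ± 0.15. Thbs3 (-0.76 and -1.02), the secreted thrombospondin 3, and Gkn3 (-0.87 and -1.33), a gastrokine expressed in brain arterial endothelium, followed on lower counts, as did the demethylase gene Alkbh4 (-0.80 and -0.98), Grid2ip (-0.85 and -1.08), whose protein binds a glutamate receptor at cerebellar synapses, Izumo4 (-0.70 and -1.24) and the ciliary receptor gene Gpr161 (-0.70 and -0.75). Grid2ip (-0.53) and Gpr161 (-0.67) were under the fold in the midbrain-level pair after the correction for GC content and length. The remaining genes had under 100 reads in at least 3 libraries and are named for completeness, Rmrp, Rtbdn, Pcsk4, 1110038B12Rik, 6230400D17Rik and Fam71e1.

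The neighbours of Ids on the X chromosome were looked at because they share its segment. Ids lies at chrX:67596244-67618260 on the minus strand of mm9. Of the 10 measured genes on each side of it none was past the fold in both pairs, beside 0.628% of all genes higher and 0.143% lower. At these shares a count of none is not particular to the neighbours. Their medians were -0.29 in the cortical-level pair and -0.0097 in the midbrain-level pair. The next gene on one side, Aff2, had log2 ratios of -0.19 ± 0.14 and 0.06 ± 0.11, and on the other side Eola1, 20.8 kb away, had -0.15 ± 0.17 and 0.10 ± 0.15. All 20 neighbours lay below 0 in the cortical-level pair, down to Gabre at -1.14 ± 0.66 on 7 and 15 reads. The ratios of this pair also moved with GC content, as given below, and the neighbour ratios are those before the correction. In the midbrain-level pair Gabre, a subunit gene of the GABA-A receptor, had -1.98 ± 0.21 on 55 and 252 reads, so it was beyond 0.7 in size in both pairs and missed the call by its counting interval in the cortical-level pair.

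**Figure D4:**
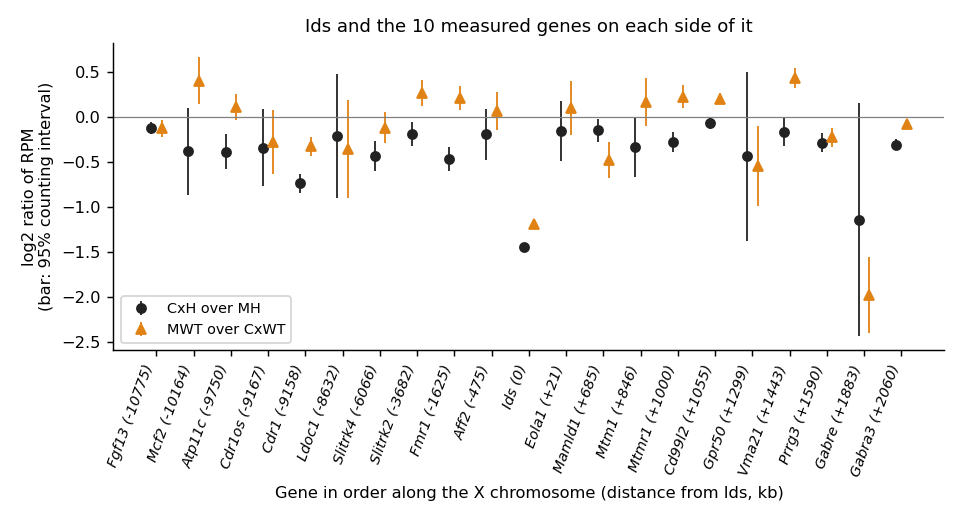
Log2 ratio of RPM (vertical axis, bars are 95% counting intervals) for Ids and the 10 measured genes on each side of it, in their order along the X chromosome, with the distance from Ids in kb in brackets, circles for CxH over MH and triangles for MWT over CxWT. Ids lies at -1.44 and -1.19, while Aff2 (-0.19 and 0.06) and Eola1 (-0.15 and 0.10) next to it lie near 0.

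Of the 79 genes higher in both pairs, 33 were in none of the 32 lists. Several of these are known from blood and immune cells, such as Ms4a7 (1.74 and 1.42), Ms4a6d (1.12 and 1.52), Wfdc17 (2.52 and 2.34, on 65 reads or fewer), the platelet chemokine gene Ppbp (1.36 and 1.70), the actin-bundling gene Lcp1 (0.81 and 0.87), the phosphatase gene Ptpn6 (0.92 and 0.98) and Adgre1, which encodes the macrophage antigen F4/80 (0.71 and 0.87), all picked after their values were seen. Fyb, an adaptor in immune cell adhesion, had 5.56 RPM in CxH against 2.62 in MH and 4.70 RPM in MWT against 2.08 in CxWT. Others are not tied to immune cells. Tmem252, a small membrane protein gene, had 3.74 RPM in CxH against 1.66 in MH and 3.59 RPM in MWT against 1.13 in CxWT, with log2 ratios of 1.17 ± 0.22 and 1.67 ± 0.27. Rbis, a factor of ribosome assembly, had 1.07 ± 0.20 and 1.21 ± 0.18.

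Genes of mitochondria, ribosomes and antioxidant defence had medians above that of all genes in both pairs, by small amounts. Of 75 genes of oxidative phosphorylation, 39 were above 0 and 10 below 0 in both pairs, with medians of 0.26 and 0.13, and 2 were past the fold, Uqcrq of complex III (0.87 ± 0.036 and 0.86 ± 0.041) and Ndufs4 of complex I (0.74 ± 0.039 and 0.98 ± 0.035). After the correction for GC content and length neither was past the fold in the midbrain-level pair (Uqcrq 0.68, Ndufs4 0.61), and the list's medians were 0.09 and -0.02. Of 31 ribosomal protein genes, 20 were above 0 in both and 1, the ribosomal protein-like gene Rps27l (1.15 ± 0.26 and 1.62 ± 0.18), was past the fold, with medians of 0.37 and 0.30 before the correction for GC content and length given below and 0.23 and 0.11 after it. Of 23 antioxidant and metal-binding genes, none was past the fold, 16 were above 0 in both, and the medians were 0.34 and 0.19. Fth1, the ferritin heavy chain that stores iron, had 1038 RPM in CxH against 653 in MH and 1164 RPM in MWT against 726 in CxWT, with log2 ratios of 0.67 ± 0.012 and 0.68 ± 0.012 just under the fold. Prdx6 (0.65 and 0.61) and Prdx1 (0.49 and 0.69), which break down peroxides, were close to it.

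Markers of other cell types were compared because dissection could vary between pools. Choroid plexus genes went opposite ways in the pairs, with all 13 below 0 in the cortical-level pair (median -0.31) and 12 of them above 0 in the midbrain-level pair (median 0.70). Their summed level was 840 RPM in CxH against 1009 in MH and 626 RPM in MWT against 399 in CxWT, and no member was at 0. The haemoglobin gene Hba-a1, a red cell marker with a near-identical copy, had 118 RPM in CxH against 176 in MH and 70.1 RPM in MWT against 245.7 in CxWT. Its log2 ratios were -0.58 and -1.81, and -0.92 and -1.85 after the correction. The other red cell gene measured, Alas2, had -0.40 and -0.28, and the remaining genes of this list of 10 were not measured. Of 22 endothelial genes, 2 were past the fold, the adhesion molecule gene Icam1 (1.09 ± 0.14 and 0.83 ± 0.17) and the amino acid transporter gene Slc38a5 (1.98 ± 0.24 and 0.72 ± 0.22, the latter 0.68 after the correction), and the medians were 0.30 and 0.21. None of 16 mural cell and fibroblast genes (0.09 and -0.01), of 18 myelin genes (-0.04 and -0.03) or of 9 genes of oligodendrocyte precursors (0.10 and -0.39) was past the fold in both. The part of these cells in the ratios was not tested.

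Neuronal lists had no member past the fold with the same sign in both pairs. The cortical and midbrain markers are the genes whose levels formed the pairs, so their ratios within a pair are not independent of that choice. None of 19 cortical projection genes (medians 0.13 and -0.29) and none of 21 midbrain and diencephalon genes (-0.26 and -0.35) was past the fold in both, and 12 of the latter were below 0 in both. Within the midbrain list Slc17a6, a vesicular glutamate transporter gene, had -1.05 ± 0.088 in the cortical-level pair and -0.02 ± 0.025 in the other. Of 26 genes of synaptic vesicles and secretion (0.18 and -0.27) and 23 immediate early genes (0.16 and -0.43), 1 each was past the fold in opposite directions, Pcsk1n and Ier5l. None was past the fold in both among 21 genes of cholesterol synthesis (0.05 and -0.01), 18 of endoplasmic reticulum stress and heat shock (-0.01 and 0.07), 16 of the circadian clock (-0.02 and -0.38), 15 of neurodegenerative protein deposits (0.13 and -0.02) or the 4 Y-linked genes (-0.48 and 0.08). Among them App, the amyloid precursor, had 0.24 and -0.21, and the clock repressor gene Nr1d1 0.09 and -0.76.

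GC content moved with both ratios in opposite directions, and transcript length moved with both in the same direction. Across 10709 genes with 100 or more reads in every library the Spearman correlation of the log2 ratio with the GC content of the transcript was 0.582 in the cortical-level pair and -0.629 in the midbrain-level pair, given as a description because genes of a library are not independent. With transcript length it was -0.288 and -0.116, so shorter transcripts had higher ratios in both pairs. The median ratio ran from -0.26 at the lowest to 0.26 at the highest GC content in the first and from 0.20 to -0.61 in the second. Across 11010 genes the Pearson correlation between the ratios of the pairs was -0.037, and 0.417 over 10709 genes once the trends with GC content and length were taken out. Among genes whose counting intervals left out 0 in both pairs, 1852 of 4704 (39.4%) had the same sign before and 2457 of 3405 (72.2%) after. The 79 genes higher in both pairs had a median GC content of 49.0%, beside 50.7% over all genes, a shorter transcript (median 1373 bases beside 3105) and a lower level (median 3.74 RPM beside 20.2), and 4 of the 79 lie on the X chromosome, beside 434 of the 12588. After the same correction 71 genes were higher in both pairs, 29 lower and 4 opposite. Of the genes described above that have a GC content, 61 of 77 higher, 12 of 15 lower and 1 of 13 opposite genes kept their class, and Lcn2 had 2.65 and 2.71, C1qa 1.02 and 1.26, Gfap 1.11 and 1.15, and Ids -1.18 and -1.42. The median of the activated microglia list was then 0.83 and 0.59.

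**Figure D5:**
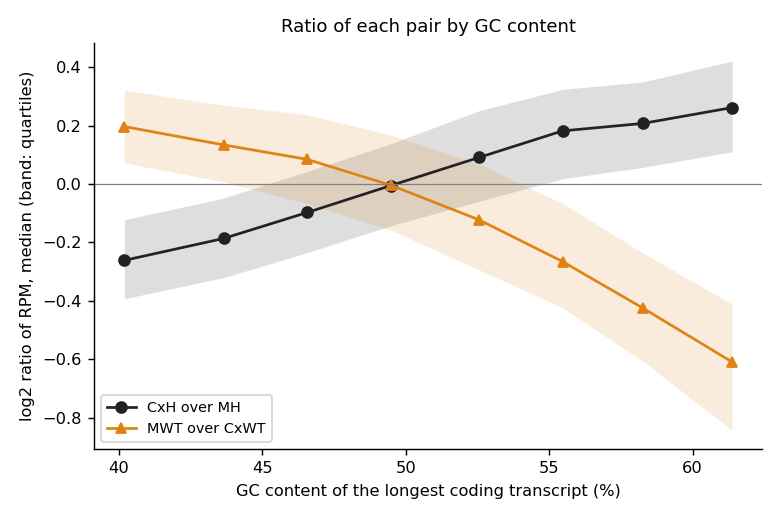
Median log2 ratio of RPM (vertical axis, band from the lower to the upper quartile) of genes grouped by the GC content of the longest coding transcript (horizontal axis, %), circles for CxH over MH and triangles for MWT over CxWT. The medians run from -0.26 up to 0.26 in one pair and from 0.20 down to -0.61 in the other, and both lie near 0 at a GC content of 49.5%.

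Membership at the edge of the fold was a matter of small differences. Just past it, the smaller of the 2 ratios was 0.702 for Tlr7 and 0.704 for Nme2 among the higher genes and 0.701 in size for Gpr161 among the lower. Short of it, Ly6a had 0.696 and Itgb3 0.694 among genes above 0 in both pairs. These values are given as a description of the threshold.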

How the data were processed

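The authors sequenced poly(A) RNA of 4 pools on a SOLiD 3 Plus instrument, aligned reads to NCBI37/mm9 with PASS 2.10, and deposited raw counts, which are reads aligned to a single gene, keeping genes with reads over more than 50% of the gene. The gene annotation used for counting is not given in the sources used here.

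RPM are the deposited counts scaled to each library's aligned reads, and log2 ratios set one library of a pair over the other, with a count of 0 set to 1. No test was run, since each label has 1 library and the sides were chosen by Ids reads. Symbols came from RefSeq by gene ID (12690 of 12700 genes), positions, GC content and length from GENCODE vM1 (12425 matched by symbol, 12234 with GC content), and promoters from RefSeq on GRCm38.p6.

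Genes were named when among the 15 with the largest agreeing ratios in a direction or the 5 with the largest opposite ratios, in each case with 100 or more reads in at least 2 libraries, when next to Ids, or when leading 1 of 32 gene lists (up to 4 members past the fold, or the 2 with most reads where none was). Others were picked after their values were seen. The members and the lists were chosen with earlier results of these data known. Steps were tested on simulated data. Python 3.11.15, pandas 2.3.3, scipy 1.17.1, R 4.3.3, edgeR 4.0.16 and DESeq2 1.42.0 were used. The authors' own comparisons were not used. A few genes are not reported here, though all entered the counts and medians.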

Additional observations from a re-analysis of the deposited data

Results flagged for a closer look

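There were 6 genes with 100 or more reads in at least 2 libraries that were past the fold in both pairs with opposite signs, that is, the low-Ids library stood above the high-Ids library in one pair and below it in the other. The difference between the pairs was not tested, since each library stands alone. Kcne2, a potassium channel subunit gene of the choroid plexus, had a log2 ratio of -0.96 in CxH over MH and 1.23 in MWT over CxWT, from 112, 212, 135 and 67 reads in CxH, MH, MWT and CxWT, and the 13 choroid plexus genes, Kcne2 included, had medians of -0.31 and 0.70. Scarf2, a scavenger receptor gene, had 0.87 and -1.53. Ier5l, an immediate early response gene, had 0.79 and -2.11. Pcsk1n, the precursor of an inhibitor of prohormone convertase, had 0.79 and -2.01, from 11318, 6361, 2013 and 9399 reads. Tbcc, a tubulin folding cofactor gene, had 0.77 and -0.80. The remaining one, F5, the coagulation factor V gene, had -0.71 and 1.09. After the correction for GC content and length Kcne2 was still past the fold in opposite directions (-0.89 and 0.92), while the ratios in CxH over MH of Scarf2 (0.68), Ier5l (0.65), Pcsk1n (0.59), Tbcc (0.56) and F5 (-0.55) were under it.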

How the results depend on the processing

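The counts of 79 genes higher, 18 lower and 14 opposite depended most on the size of the fold and on the minimum of reads. With a log2 ratio of 1 they were 36, 3 and 1, with 0.5 they were 189, 64 and 96, and with 100 reads in every library they were 30, 7 and 2. After correction for GC content and length, which drops genes without a GC content, 71 genes were higher (61 of them among the 77 that could be corrected), 29 lower (12 of them among 15) and 4 opposite, so that the share of higher among agreeing genes was 71.0%, beside 83.7% before it over the genes that could be corrected. Scaling by column totals (85, 14 and 12 genes), TMM factors (80, 17 and 13) or DESeq2 size factors (80, 17 and 12), no filter on reads (81, 19 and 15), 0.5 added to every count (78, 16 and 13) and no condition on counting error (82, 23 and 17) gave counts within 1.5 times of these. Counts within the gene lists moved too, out of 64 (higher and lower in each of 32 lists). They moved by more than 1.5 times in 10 with 100 reads in every library, 9 with a log2 ratio of 1, 11 with 0.5, 6 after the correction and 3 or fewer under the scalings. No named ratio of a gene past the fold changed sign under the scalings, the added count or the correction. The correction moved 91 of the named ratios by more than their counting interval and left 97 within it. No paired analysis was possible because the results come from no test: each label has 1 library and the sides were chosen by Ids reads. By the labels the libraries of a pair come from the same mice, but the mice were pooled, so no single mouse has a ratio of its own. The pairs are described and not tested. With 1 library a label, no replicate could be left out. Depth limits genes such as Ccl8 and Ccl3, whose ratios rest on fewer than 50 reads in each library.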
